A study of Mus musculus with 24 samples.

Results

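The regulators of G protein signaling Rgs1, Rgs2, Rgs3, Rgs10, Rgs14, Rgs16 and Rgs19 were followed through 4 states of mouse CD4+ T cells, with and without the chromatin remodeling subunit BAF180. They were chosen by gene symbol: every probe of the bead array that the deposited table assigns to one of these 7 symbols was taken, which gave 16 of 25697 probes and 7 of 17871 genes. A probe was kept for testing when its detection p, the chance of so bright a signal among the array's negative control beads, was at most 0.02 on at least 1 array. This left 14246 probes of 10418 genes and, among them, 13 probes of 6 RGS genes. The probe of Rgs2 was the one gene lost.

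The cells came from 4 to 6 week old mice that were either wild type (WT) or BAF180 cKO (KO), a T cell deletion of the gene Pbrm1 that encodes BAF180, made with a floxed allele and CD4-Cre. The labels give the strain as Balb/c, while the methods describe a mixed B6-129 background before the cross to CD4-Cre. Resting Naive cells were CD4+CD62L+ cells purified from spleen and lymph nodes, given as 95% pure. Stimulated Naive cells spent 24 hours on plates coated with anti-CD3 (1 µg/ml) and anti-CD28 (2 µg/ml). Resting Th2 cells were raised on the same coated plates with IL-4 (10 ng/ml) and anti-IFN-gamma (10 µg/ml), received IL-2 (100 U/ml) after 24 hours and were expanded in it. Stimulated Th2 cells were such cells treated for 1.5 hours with PMA (50 ng/ml) and ionomycin (500 ng/ml), so the stimulation of Naive and of Th2 cells differed in both agent and time. Each of the 8 groups held 3 arrays, lettered A, B and C.

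RGS proteins speed up the hydrolysis of GTP by the alpha subunits of heterotrimeric G proteins and so shorten signals from G protein-coupled receptors, among them the chemokine and sphingosine 1-phosphate receptors that guide T cells in lymphoid tissue. Rgs1, Rgs2, Rgs3 and Rgs16 belong to the R4 subfamily, Rgs10 and Rgs14 to the R12 subfamily, and Rgs19, also called GAIP, to the RZ subfamily. Rgs1 is known in lymphocytes as a brake on chemokine receptor signals, and Rgs16 as a gene that T cells switch on when activated.

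Probes of 6 of the genes are shown here because the values below are the brightness of single probes, and because the probes of Rgs1 and of Rgs3 did not all give the same answer. Each probe is 50 bases long, of which the first 30 bases are given 5′ to 3′, with no base singled out by capitals. The first base named is counted along the transcript that the table gives.
Rgs16, base 2112: gcctcctccctaccagactctacctctgca
Rgs1, base 995, its brightest probe: gcgtgctgttgtgtagaatgtgttgaactc
Rgs1, base 712: gcctacttgggtggctcaggaggcccagtg
Rgs1, base 159: gagatcgatgatcccacatctggaatctgg
Rgs3, base 2756, its brightest probe: gaaggactcttaccctcgcttcctccgctc
Rgs3, base 4337 of another transcript: gccacataaatcacgctaagaagcacacaa
Rgs10, base 817: ctgccaatactggacactcagcctttcaat
Rgs19, base 1391: ggtctttccaaagaaactagtcacagtgtc
Rgs2, base 2254: ggaacaagcacaagtacaggagggacaacc

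Rgs1, Rgs2 and Rgs16 all lie on chromosome 1. In the RefSeq gene order (GRCm38.p6) Rgs2, Rgs13, Rgs1, Rgs21 and Rgs18 follow one another, and Rgs16 stands apart from that cluster, beside Rgs8. Rgs3 is on chromosome 4, Rgs10 on chromosome 7, Rgs14 on chromosome 13 and Rgs19 on chromosome 2. Coordinates of the probes are left out since the table does not name their build.

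Levels are log2 intensities after background correction and quantile normalization over all 24 arrays. Between 8047 and 10689 probes were detected on an array, the mean intensity of an array ranged from 85.3 to 265, and arrays of one group correlated at 0.949 to 0.989. Pbrm1 differed between KO and WT cells by -1.63, -1.86 and -1.42 (log2) in stimulated Naive, resting Th2 and stimulated Th2 cells (limma, adjusted p = 0.00746, 0.00101 and 0.0141) and by -1.01 in resting Naive cells (adjusted p = 0.121). All 6 CD4 T cell markers were detected in every group, and the summed level of 6 Th2 markers was 18918 to 21245 in stimulated Th2 cells against 313 to 2887 in the other states. Th2 markers on WT arrays summed to 1248 to 2122 in resting Th2 and 1131 to 2015 in stimulated Naive cells. WT activation markers summed to 3185 to 4677 in resting and 2515 to 4036 in stimulated Naive cells. In WT Th2 cells they summed to 864 to 1413 at rest and 3771 to 6216 after stimulation. WT naive markers summed to 2732 to 3589 in resting Naive and 2939 to 3719 in resting Th2 cells. They summed to 392 to 625 in stimulated Naive and 1063 to 1621 in stimulated Th2 cells. Some facts about the arrays touch all comparisons with resting Naive cells. Markers of myeloid cells were present there: 8 of 9 were detected, with Itgam at background, and their summed level was 2232 to 6966 on the WT arrays and 2597 to 3649 on the KO arrays, against 37.4 to 161 in the other states, where at most 3 were detected and Lyz2, Cd14 and Tyrobp were not. B cell markers summed to 375 to 1096 in resting Naive cells and to 28.6 to 480 elsewhere, with Pax5 and Ebf1 undetected throughout. The markers of CD8 T and NK cells summed to 717 to 1131 there and to 129 to 738 elsewhere, with Cd8a, Ncr1 and Gzma undetected. Their part in the results was not tested. The resting Naive arrays were also dimmer overall. Without normalization between arrays the median kept probe lay 0.26 higher in stimulated than in resting Naive WT cells and 0.36 higher in resting Th2 than in resting Naive WT cells (log2), and the calls over all genes shifted from 2424 higher and 2280 lower to 2770 and 578 in the first of these comparisons, and from 1864 and 1836 to 2318 and 397 in the second. For stimulation of WT Th2 cells these calls went from 1307 higher and 1657 lower to 702 and 443.

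**Figure D1:**
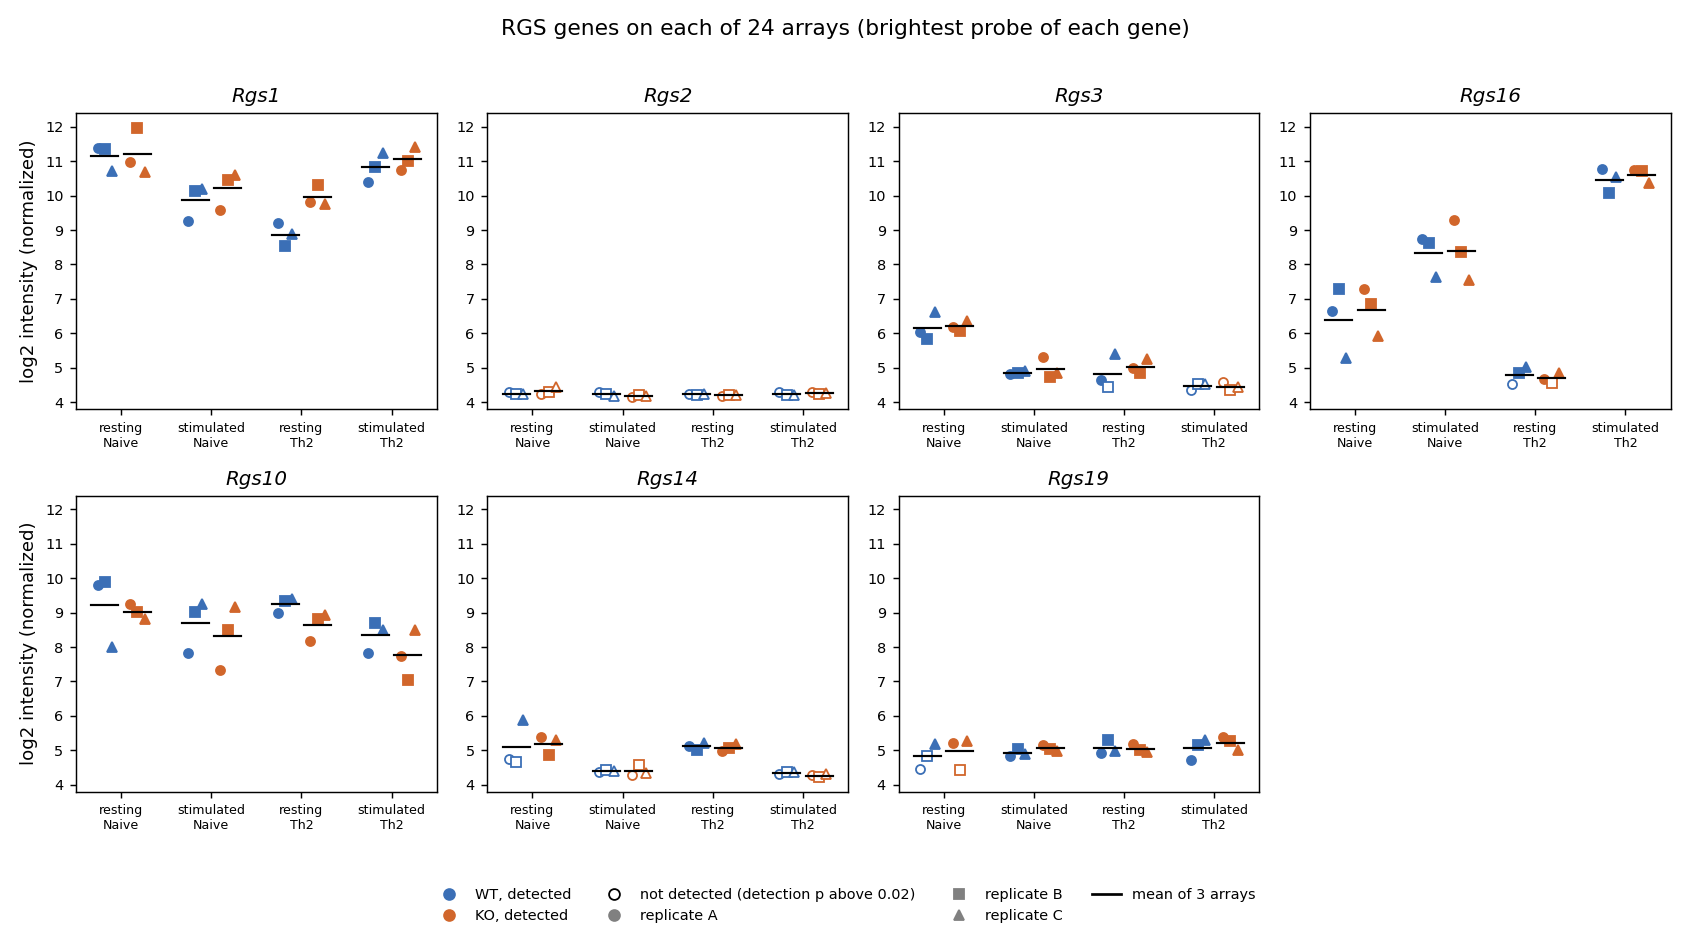
Normalized log2 intensity of the brightest probe of each RGS gene (y axis) on each of the 24 arrays, by cell state (x axis), with WT in blue, KO in orange, open symbols where the probe was not detected and a bar at the mean of 3 arrays. Rgs16 runs from a mean of 4.79 in resting to 10.46 in stimulated WT Th2 cells, Rgs1 is lowest in resting Th2 cells on this scale, and Rgs2 stays at background on all 24 arrays.

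Rgs16 showed the widest range of the 6 genes. It encodes a small R4 regulator of Gi and Gq signals. In resting Th2 cells it was near background, at 4.51, 4.83 and 5.02 on WT arrays A, B and C and 4.67, 4.54 and 4.86 on the KO arrays, with WT array A and KO array B not detected. After PMA and ionomycin it read 10.77, 10.08 and 10.53 in WT and 10.74, 10.70 and 10.36 in KO cells. Every stimulated array stood far above every resting one in both genotypes. The rise was 5.67 ± 0.45 (log2, SE) or 51.0-fold in WT cells (95% interval 4.74 to 6.61, limma, adjusted p = 8.22e-09) and 5.91 ± 0.45 or 60.2-fold in KO cells (adjusted p = 5.29e-09). Among 10418 genes this difference ranked 8th from the top in WT and 7th in KO cells. It remained 5.97 and 5.63 without normalization between arrays.

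In Naive cells Rgs16 also rose. The WT arrays A, B and C gave 6.64, 7.28 and 5.27 at rest and 8.75, 8.64 and 7.62 after anti-CD3 and anti-CD28, and the KO arrays gave 7.30, 6.84 and 5.91 at rest and 9.29, 8.35 and 7.54 after stimulation. The groups did not overlap, though array C was the dimmest for this gene in both states and genotypes. The rise was 1.94 ± 0.45 or 3.85-fold in WT cells (95% interval 1.01 to 2.88, limma, adjusted p = 0.00135) and 1.71 ± 0.45 or 3.28-fold in KO cells (adjusted p = 0.00391), and the gene ranked 263rd and 382nd of 10418. Resting Th2 cells held less Rgs16 than resting Naive cells, by 1.61 in WT (3.04-fold, adjusted p = 0.00846) and by 1.99 in KO cells (3.97-fold, adjusted p = 0.00167). In WT cells the adjusted p of this last difference was 0.0643 without WT resting Naive array B, where it was -1.16, 0.0699 on Z-scores and 0.106 without normalization between arrays, where it was -0.87.

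The order of Rgs16 in WT cells was thus stimulated Th2 (10.46 ± 0.35, SD, n = 3), stimulated Naive (8.34 ± 0.62), resting Naive (6.39 ± 1.03) and resting Th2 (4.79 ± 0.26). All neighbours in this order differed past the threshold, stimulated Th2 from stimulated Naive cells by 2.12 (4.36-fold, limma, adjusted p = 0.00173). Stimulated Th2 cells exceeded resting Naive cells by 4.07 (16.8-fold, adjusted p = 2.17e-07), and resting Th2 cells lay 3.55 below stimulated Naive cells (11.7-fold, adjusted p = 6.76e-06). In bulk RNA of this kind, fewer cells of a type and less RNA per cell cannot be told apart.

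Since Rgs16 showed the largest difference among the members, its promoter is given. The stretch holds the 250 bases before the RefSeq start site, at chr1:153740103-153740352 (GRCm38.p6, plus strand), with matches to a CCAAT box and to GC boxes in capitals.
Rgs16 promoter: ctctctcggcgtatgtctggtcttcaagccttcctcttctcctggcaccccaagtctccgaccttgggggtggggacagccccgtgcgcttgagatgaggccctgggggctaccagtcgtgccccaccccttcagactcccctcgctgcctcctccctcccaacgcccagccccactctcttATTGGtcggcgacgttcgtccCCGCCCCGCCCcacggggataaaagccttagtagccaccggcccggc
The window searched ran from 250 bases before to 50 after the start, on both strands. It held 1 CCAAT, read on the opposite strand, starting 68 bases before the start, and 2 overlapping matches to the GC box GGGCGG, also on the opposite strand, 47 and 42 bases before it. Of 32851 mouse promoters of the same length 37.4% hold CCAAT and 35.7% hold GGGCGG. No match was found to the AP-1 motif TGANTCA (7.81% of promoters), the cyclic AMP element TGACGTCA (1.79%) or the NFAT core GGAAAA (23.4%). Such matches describe the letters of this window and do not show binding.

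Rgs1, an R4 regulator that dampens chemokine receptor signals through Gi, was bright on all 24 arrays. On the normalized scale it fell with the stimulation of Naive cells and rose with that of Th2 cells, though without normalization between arrays the fall was called in neither genotype and turned to a difference of 0.15 in KO cells. Its WT levels on arrays A, B and C were 11.38, 11.35 and 10.71 in resting Naive cells, 9.27, 10.13 and 10.20 in stimulated Naive cells, 9.21, 8.53 and 8.87 at rest in Th2 cells and 10.40, 10.82 and 11.24 after PMA and ionomycin. The KO levels were 10.97, 11.97 and 10.69, then 9.60, 10.45 and 10.61, then 9.80, 10.30 and 9.76, and last 10.75, 11.01 and 11.41. On this normalized scale no array of a stimulated group overlapped the resting group of the same cells and genotype.

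In Th2 cells Rgs1 rose with PMA and ionomycin, by 1.95 ± 0.34 (log2) or 3.87-fold in WT cells (95% interval 1.24 to 2.66, limma, adjusted p = 0.000159) and 2.14-fold in KO cells (95% interval 0.39 to 1.81 on the log2 scale, adjusted p = 0.0199). The WT rise ranked 166th of 10418 genes and stood at 2.33 without normalization between arrays (adjusted p = 0.0128). The KO rise depended on single arrays of this probe: the adjusted p was 0.0707 without KO resting Th2 array A, 0.0665 without array C and 0.0864 without KO stimulated Th2 array C, with differences of 1.02, 1.00 and 0.92. It was 0.57 without normalization between arrays (adjusted p = 0.561). All 3 probes of Rgs1 were called in both genotypes, the probes at bases 159 and 712 with 2.02 and 2.14 in WT and 1.71 and 1.57 in KO cells.

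In Naive cells Rgs1 was lower after stimulation on the normalized scale, by 1.28 ± 0.34 or 2.43-fold in WT (limma, adjusted p = 0.00412) and by 0.99 ± 0.34 or 1.99-fold in KO cells (adjusted p = 0.0232). Resting Th2 cells lay below resting Naive cells by 2.28 or 4.86-fold in WT (adjusted p = 2.52e-05) and by 1.25 or 2.38-fold in KO cells (adjusted p = 0.00677). These falls depended on the scaling. Without normalization between arrays they were -0.14 (adjusted p = 0.891) and -1.28 (0.109) in WT cells and turned to 0.15 (0.884) and 0.14 (0.862) in KO cells. As deposited, the WT intensities were 989.2, 1242.7 and 1042.6 at rest and 727.4, 882.8 and 1492.3 after stimulation, which overlap. The KO falls also lost the call without KO resting Naive array B, at -0.61 (adjusted p = 0.175) and -0.87 (0.0613), and the first of them without KO stimulated Naive array A, at -0.68 (0.135). The probe at base 159 did not pass for either KO fall, with -0.36 (adjusted p = 0.455) and -0.25 (0.627), while that at base 712 did, with -0.89 (0.00952) and -1.01 (0.00548).

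Ordered by the WT mean, Rgs1 was at 11.15 ± 0.38 (SD, n = 3) in resting Naive, 10.82 ± 0.42 in stimulated Th2, 9.87 ± 0.52 in stimulated Naive and 8.87 ± 0.34 in resting Th2 cells. Resting Naive and stimulated Th2 cells did not differ past the threshold (-0.33, limma, adjusted p = 0.453), nor did stimulated Th2 and stimulated Naive cells by this probe (0.95, adjusted p = 0.0532). This last difference passed with the replicate letter as a block (adjusted p = 0.0370) and without WT stimulated Th2 array A (1.16, adjusted p = 0.0405), and both other probes passed (3.04-fold and 2.92-fold, adjusted p = 0.00285 and 0.000239). Resting Th2 cells lay below stimulated Naive cells by 1.00 (adjusted p = 0.0382), a call that was lost on leaving out any of 4 arrays (adjusted p = 0.083 to 0.154) and without normalization between arrays (0.320).

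**Figure D2:**
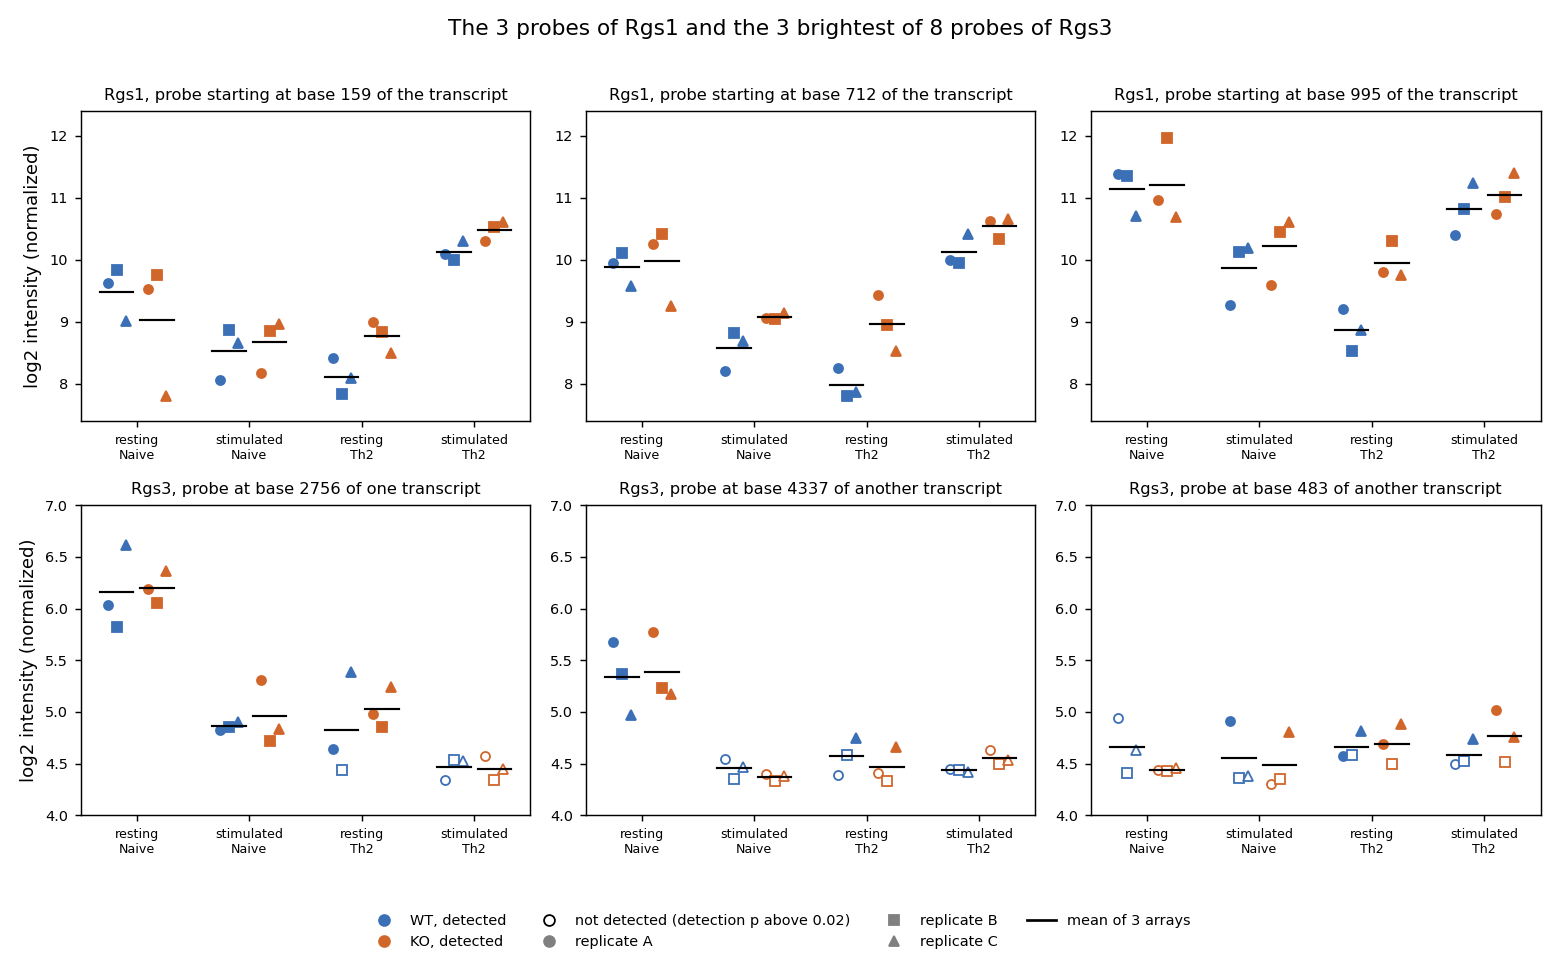
Normalized log2 intensity (y axis) of the 3 probes of Rgs1 (upper row) and of the 3 brightest of 8 probes of Rgs3 (lower row, narrower y range) on each array, by cell state, with the colours and symbols of the plot of all members. All 3 Rgs1 probes rise from resting to stimulated Th2 cells and read higher on each KO than on each WT resting Th2 array (not past the threshold), and 2 of the 3 Rgs3 probes are highest in resting Naive cells on this scale.

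Rgs3, a longer R4 regulator with several transcripts, was highest in resting Naive cells. On arrays A, B and C its brightest probe gave 6.04, 5.83 and 6.61 in WT and 6.18, 6.05 and 6.36 in KO resting Naive cells. It fell to 4.83, 4.85 and 4.90 in WT and 5.31, 4.72 and 4.84 in KO stimulated Naive cells, and to 4.64, 4.44 (not detected) and 5.39 in WT and 4.98, 4.85 and 5.24 in KO resting Th2 cells. None of the 6 stimulated Th2 arrays detected it (4.34 to 4.57). On the normalized scale all resting Naive arrays lay above all arrays of the other states. As deposited, the resting Naive intensities were 57.7 to 99 in WT and 61.6 to 86.8 in KO cells. Those of resting Th2 cells were 43.5 to 65 in WT and 56.7 to 84.8 in KO cells, which overlap them.

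The fall of Rgs3 with stimulation of Naive cells was 1.30 ± 0.22 or 2.46-fold in WT (limma, adjusted p = 4.99e-05) and 1.24 ± 0.22 or 2.37-fold in KO cells (adjusted p = 8.41e-05). Resting Th2 cells were lower than resting Naive cells by 1.33 or 2.52-fold in WT (adjusted p = 6.45e-05) and by 1.17 or 2.26-fold in KO cells (adjusted p = 0.000253). Stimulated Th2 cells were at least 2.82-fold lower than resting Naive cells in WT (adjusted p = 1.5e-06), a bound because the probe was at background there. Without normalization between arrays the first 4 of these differences kept their sign and lost the call, at -0.66, -0.64, -0.62 and -0.24 (adjusted p up to 0.520), and the last kept it at -0.92 (adjusted p = 0.0178). PMA and ionomycin changed Rgs3 in Th2 cells by -0.36 in WT (adjusted p = 0.261) and by -0.57 in KO cells (adjusted p = 0.0553, but 0.0250 with the replicate letter as a block, 0.0203 with the 6 arrays alone and 0.0434 without normalization between arrays). WT stimulated Naive (4.86 ± 0.04) and resting Th2 cells (4.83 ± 0.50) had like levels, with a difference of -0.03.

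Of the other 7 Rgs3 probes, the one at base 4337 followed the brightest (r = 0.806 over 24 arrays), at 5.33 ± 0.35 in WT and 5.39 ± 0.33 in KO resting Naive cells and 4.37 to 4.57 as means elsewhere. It fell by 0.88 with stimulation of WT Naive cells (limma, adjusted p = 0.000183), where no stimulated array detected it. It was 0.76 lower in WT resting Th2 than in resting Naive cells (adjusted p = 0.0012), and 1 of 3 WT resting Th2 arrays detected it. The exact size of both differences is therefore uncertain. The remaining 6 stayed near background, 2 of them undetected on all arrays. They match other parts of the gene's transcripts, and 2 of them share 49 bases, so they are not independent readings. Rgs2, the fourth R4 member, which acts mainly on Gq, was at 35.6 to 44.2 intensity units on the 24 arrays with a lowest detection p of 0.0977. This is the level of the negative controls, and no change was detectable.

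Rgs14, an R12 regulator that also carries Ras-binding and GoLoco domains, was a dim gene that was detected at rest and not after stimulation. It was detected on all 6 resting Th2 arrays (5.11, 5.02 and 5.22 in WT, 4.99, 5.07 and 5.18 in KO cells), on all 3 KO resting Naive arrays (5.38, 4.87 and 5.31) and on 1 of 3 WT resting Naive arrays (4.74, 4.66 and 5.89). None of the 12 arrays of stimulated cells detected it (4.21 to 4.58). WT cells held at least 1.37-fold less after stimulation of Th2 cells (limma, adjusted p = 0.00948). In WT Naive cells the level fell by 0.69 (adjusted p = 0.0118), for which no bound is given because 2 of the 3 resting arrays were themselves at background. In KO cells the bounds were 1.33-fold (adjusted p = 0.00708) and 1.47-fold (adjusted p = 0.00503). The WT Naive difference rested on resting Naive array C: without it the difference was -0.30 and the adjusted p 0.0883. Without normalization between arrays the Naive differences were -0.47 in WT and -0.42 in KO cells (adjusted p = 0.161 and 0.210), and those of Th2 cells stayed past the threshold (adjusted p = 0.0454 and 0.00398). The resting states did not differ past the threshold in WT cells with all arrays (0.02), but without resting Naive array C resting Th2 cells were higher by 0.42 (adjusted p = 0.0239).

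Rgs10, the small R12 regulator known from immune cells and platelets, was bright on all 24 arrays and passed the threshold in no state comparison when all arrays were fitted. Its WT levels were 9.81, 9.90 and 7.99 in resting Naive, 7.82, 9.01 and 9.25 in stimulated Naive, 8.99, 9.35 and 9.40 in resting Th2 cells and, after PMA and ionomycin, 7.82, 8.70 and 8.49. Array C of the resting and array A of the stimulated Naive cells stood more than 1 unit apart from their partners. The difference of stimulated from resting Th2 cells was -0.91 in WT (95% interval -1.94 to 0.12, limma, adjusted p = 0.201) and -0.88 in KO cells (adjusted p = 0.220). In WT cells the groups did not overlap on the normalized scale, and the adjusted p was 0.0334 when only these 6 arrays entered the fit. As deposited, the WT intensities were 467.1 to 708.6 at rest and 177.8 to 763.8 after stimulation, which overlap. Stimulated Th2 against resting Naive WT cells gave -0.90 with all arrays and -1.52 without resting Naive array C (adjusted p = 0.0114). Rgs19, a regulator of Gi and Gz, was dim and flat, with group means of 4.82 to 5.22. It was detected on 21 of 24 arrays, and its differences were at most 0.25 in size, though that of KO resting Th2 from KO resting Naive cells was 0.63 without normalization between arrays (adjusted p = 0.0470).

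**Figure D3:**
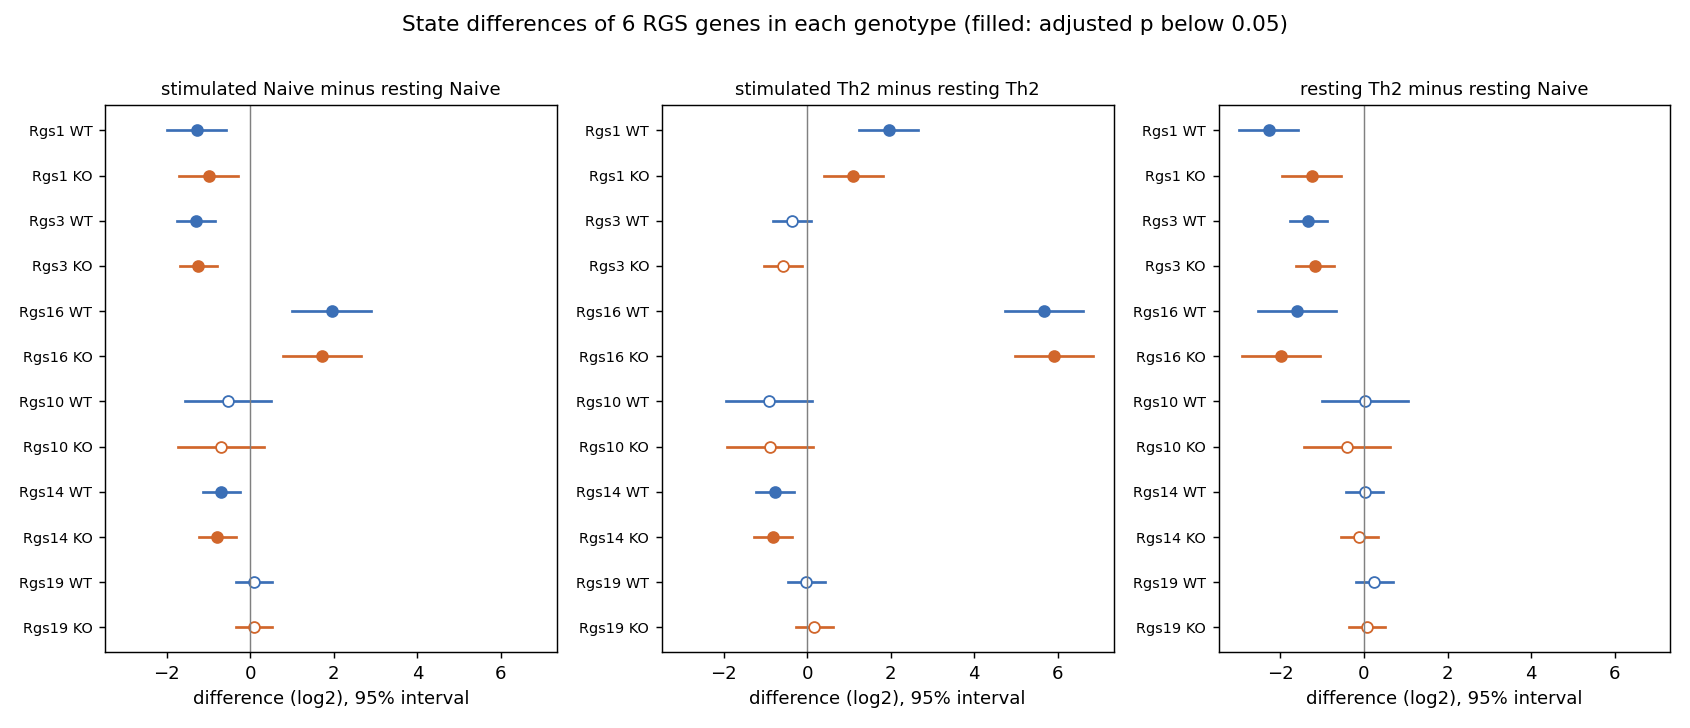
Difference of log2 level (x axis, with its 95% interval) between cell states for the brightest probe of 6 RGS genes in WT (blue) and KO (orange), each point over 3 against 3 arrays, filled where the adjusted p was below 0.05. Rgs16 and Rgs1 rise in stimulated Th2 cells, by 5.67 and 1.95 in WT, while Rgs1 and Rgs3 lie below 0 in the other panels, where without normalization between arrays no Rgs1 or Rgs3 difference was called and those of Rgs1 in KO cells turned to 0.15 and 0.14.

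Counted over the 6 genes, stimulation of WT Naive cells left 1 higher and 3 lower, stimulation of WT Th2 cells 2 higher and 1 lower, and WT resting Th2 cells had none higher and 3 lower than resting Naive cells. Over all genes tested 45.2%, 28.5% and 35.5% passed the same threshold in these comparisons (23.3% higher and 21.9% lower, 12.5% and 15.9%, and 17.9% and 17.6%), so the 4, 3 and 3 genes called are to be read against 3 comparisons in which many genes changed. The median difference of the 6 genes was -0.62, -0.19 and -0.66, and that of all genes -0.01, -0.01 and 0.00. In KO cells 4, 3 and 3 were called, against 43.4%, 27% and 35.7% of all genes. Across the remaining WT pairs of states 1 gene was called for stimulated Th2 against stimulated Naive cells, 3 for resting Th2 against stimulated Naive cells and 3 for stimulated Th2 against resting Naive cells, where 21.2%, 23.6% and 49.4% of all genes were.

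Other genes of the pathway were counted in the same 3 WT comparisons, in which 45.2%, 28.5% and 35.5% of all genes were called. The shares were 45.5%, 27.3% and 40.9% of the G protein subunits, which lie near those of all genes, 60%, 50% and 30% of the other RGS genes, 50%, 58.3% and 25% of the other regulators, 60.9%, 39.1% and 39.1% of the effectors and 57.1%, 54.3% and 60% of the receptors. They describe lists of 10 to 35 genes and were not tested against the rest. Of 10 other RGS and RGS homology genes tested (19 on the array), 6 fell and none rose with stimulation of WT Naive cells. In Th2 cells 4 fell and 1 rose, and 3 were lower in resting Th2 than in resting Naive cells. Rgs12, another R12 member, was detected in resting Naive (5.88 ± 0.52) and resting Th2 cells (5.59), was at background in stimulated WT cells and was at least 1.91-fold lower after stimulation of Th2 cells (limma, adjusted p = 0.00157). Arhgef1, an exchange factor with an RGS homology domain, fell by 1.76 with stimulation of Naive cells, and Axin2, a brake on Wnt signaling with such a domain, fell by 1.63. The sorting nexin Snx14 fell by 1.84 and the anchoring protein Akap10 rose by 0.60 with stimulation of Th2 cells. Snx13 was 0.83 and Arhgef1 1.07 lower in resting Th2 than in resting Naive cells. The remaining members of this list, Snx25 (5.75 to 6.09 as WT means), Rgs7bp (4.64 to 4.94), Rgs9 and Rgs9bp (near background), were not called in WT cells. None of the 10 was called in the comparisons with resting Naive cells without normalization between arrays, and 2 fell in stimulated Th2 cells, Snx14 (-1.66) and Rgs12 (-1.23).

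Of 22 heterotrimeric G protein subunits tested, 4 rose and 6 fell with stimulation of WT Naive cells, 2 rose and 4 fell in Th2 cells, and 6 were higher and 3 lower in resting Th2 than in resting Naive cells. Gnai2, the main inhibitory alpha subunit of lymphocytes and a target of most RGS members here, fell by 1.22 in Naive cells and fell by 1.40 in Th2 cells (limma, adjusted p = 0.00244 and 0.00137), though only by 0.10 and 1.03 without normalization between arrays (0.924 and 0.286). Gna15, a promiscuous alpha subunit of the Gq class, was at least 1.73-fold higher in resting Th2 than in resting Naive cells and at least 1.98-fold lower after their stimulation. The gamma subunit Gng2 rose by 0.89 in Naive cells and was 1.92 higher in resting Th2 cells. Gngt2 fell by 1.66 and Gng5 rose by 1.06 in Naive cells, and Gnb5, the beta subunit that pairs with R7 regulators, rose by 0.96 in Th2 cells. Gng5 was detected on 1 of 3 WT resting Naive arrays. Gngt2 was 0.83 lower in resting Th2 than in resting Naive cells, a difference that turned to 0.05 without normalization between arrays, where 3 subunits rose and none fell in Naive cells, none rose and 1 fell in Th2 cells, and 6 were higher and none lower in resting Th2 cells. Gng2 and Gngt2 in Naive cells and Gnb5 in Th2 cells were then not called, with their signs kept (limma, adjusted p = 0.0902, 0.111 and 0.0520).

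Other regulators of G proteins and receptors include, besides further genes, the kinases and arrestins that switch receptors off. Of the 12 tested in this list, 1 rose and 5 fell in WT Naive cells, and 1 rose and 6 fell in Th2 cells. In resting Th2 cells 3 were lower than in resting Naive cells. Arrb2 (beta-arrestin 2) fell by 1.99 and the receptor kinase Grk6 was 3.02-fold lower in Naive cells, where Pdcl rose by 0.58. In Th2 cells Slc9a3r1 fell by 2.49, Grk6 fell by 2.00, and Grk5 rose by 0.68. Gprasp1, a receptor sorting protein, was 2.36 lower in resting Th2 than in resting Naive cells. Among 23 effectors, 1 rose and 13 fell in Naive cells, none rose and 9 fell in Th2 cells, and resting Th2 against resting Naive cells gave 2 rises and 7 falls. The Rac exchange factor Prex1 fell by 2.21 and the phosphodiesterase Pde4d fell by 2.20 in Naive cells, and in Th2 cells Pde4d fell by 2.01 and the kinase subunit Prkacb fell by 1.71. The cyclic AMP responsive factor Crem rose by 2.03 in Naive cells, where 1 of 3 resting arrays detected it. The effectors called without normalization between arrays were 1 higher and 5 lower, 0 and 3, and 4 and 2 in these comparisons, and the other regulators 1 and 1, 0 and 5, and 2 and 1. Arrb2 in Naive and Grk5 in Th2 cells were then no longer called (adjusted p = 0.0926 and 0.139).

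The receptors that feed these G proteins went both ways, with 6 higher and 14 lower of 35 tested in stimulated Naive cells, 9 and 10 in stimulated Th2 cells and 10 and 11 in resting Th2 against resting Naive cells. The chemokine receptor Cxcr4 fell by 3.52 or 11.4-fold with stimulation of Naive cells, while the prostaglandin E2 receptor Ptger2 was at least 2.58-fold higher and Ccr8 rose by 1.44. In Th2 cells Ptger2 rose by 2.36 and the adenosine receptor Adora2b by 2.23, while the leukotriene B4 receptor Ltb4r1 fell by 2.13 and the sphingosine 1-phosphate receptor S1pr4 was at least 3.51-fold lower. Resting Th2 cells exceeded resting Naive cells in Cysltr1, by 3.98 or 15.8-fold, and in Ltb4r1, by 3.60 or 12.1-fold, and fell short in Ccr6 by 2.65. Among WT arrays Cxcr4 was detected on 1 of 3 stimulated Naive, Cysltr1 on 1 of 3 resting Naive and Ccr6 on 1 of 3 resting Th2 arrays. The exact size of these 3 differences is therefore uncertain. The receptors named here kept sign and call without normalization between arrays, and over the whole list 6 were higher and 6 lower, 5 and 5, and 9 and 4.

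**Figure D4:**
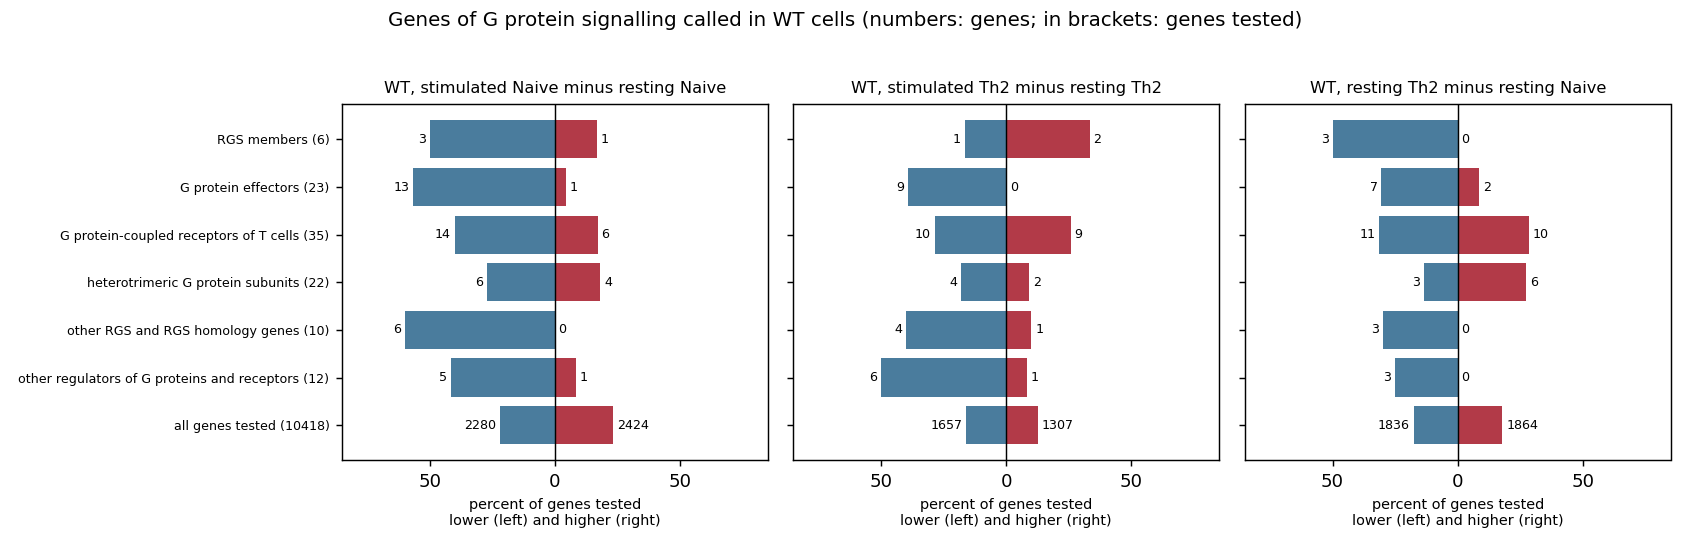
Percent of tested genes called lower (left, blue) and higher (right, red) in WT cells (x axis) in 3 state comparisons, for the RGS members, 5 lists of G protein signalling genes and all 10418 genes, with the number of genes beside each bar. With stimulation of Naive cells 13 effectors are lower and 1 higher and 6 other RGS genes lower and 0 higher, which became 5 and 1, and 0 and 0, without normalization between arrays.

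The genotype comparison asks what loss of BAF180 does to these genes in each state. The thresholds of the study's 4 conditions were used to call a gene there, namely an unadjusted p below 0.05, an adjusted p below 0.3, a mean signal above 0, and a Z-ratio, which is the difference over the SD of all differences, above 1.5 in size. The study set them on Z-scores, while here they were applied to limma's p-values and to differences of normalized log2 level. By this rule 0.758%, 0.115%, 0.106% and 0.096% of all genes were called in resting Naive, stimulated Naive, resting Th2 and stimulated Th2 cells, and none of the 6 RGS genes was called in any state by limma. At an unadjusted p below 0.05 the counts of RGS genes were 0, 0, 1 and 0 of 6. Of all 14246 probes, 973, 321, 489 and 397 passed that threshold in the same states.

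The 1 RGS gene at an unadjusted p below 0.05 was Rgs1 in resting Th2 cells. The study, by its own Z-score analysis of these arrays, names Rgs1 as apparently repressed by BAF180 in Th2 cells. Fitted here with limma on Z-scores within each array, Rgs1 was not called by genotype in any state. On the normalized log2 scale the KO arrays gave 9.80, 10.30 and 9.76 and the WT arrays 9.21, 8.53 and 8.87. Each KO array thus exceeded each WT array. The difference was 1.09 ± 0.34 or 2.13-fold (95% interval 0.38 to 1.80, limma, p = 0.00433, adjusted p = 0.792), the 12th from the top among 10418 genes, and the exact permutation p was 0.1, the smallest that 3 against 3 arrays allow. It ranged from 0.92 to 1.26 on leaving out single arrays and was 1.65 without normalization between arrays (adjusted p = 0.630), where the median probe lay 0.27 higher in KO cells. The Rgs1 probes at bases 159 and 712 gave 0.66 and 0.99 (limma, adjusted p = 1.000 and 0.465), both again with no overlap. Groups without overlap made up 10.3% of all genes in this comparison. The summed level of 6 regulatory T cell markers was 2580 to 3355 on the KO and 1887 to 2496 on the WT arrays, with Foxp3 at 6.89 ± 0.41 and 5.89 ± 0.22 (SD, n = 3). Their part in the difference was not tested.

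In the other states Rgs1 differed between genotypes by 0.06 (95% interval -0.65 to 0.77) in resting Naive, 0.35 (-0.36 to 1.06) in stimulated Naive and 0.24 (-0.47 to 0.95) in stimulated Th2 cells. Between KO and WT cells the response of Rgs1 to Th2 stimulation differed by -0.85 (95% interval -1.85 to 0.15) and its step from resting Naive to resting Th2 cells by 1.03 (0.03 to 2.03), and neither difference passed the test (limma, adjusted p = 1.000 for both). The threshold of 0.05 was passed by 0.0096%, 0% and 0.0096% of all genes in the tests of the Naive stimulation, the Th2 stimulation and the resting cell types, and by none of the 6 RGS genes. Rgs10 differed by -0.20, -0.36, -0.61 and -0.58 in the 4 states, with intervals that all reach above 0 and no overlap of groups in resting Th2 cells on the normalized scale. As deposited, its intensities there were 312.3 to 867.1 in KO and 467.1 to 708.6 in WT cells, which overlap. Rgs16 differed by 0.29, 0.06, -0.10 and 0.14, and its response to Th2 stimulation by 0.24 (-1.08 to 1.56). The Rgs16 interval in resting Naive cells, -0.65 to 1.22, includes a rise of 2-fold, so such a rise was not excluded there. Rgs3, Rgs14 and Rgs19 differed by at most 0.20 in size in any state, with intervals within -0.53 to 0.65, except that Rgs14 in resting Naive cells went from 0.09 to 0.49 without WT array C and then met the rule (limma, adjusted p = 0.133). The 3 Rgs14 levels of KO stimulated Th2 cells lay below the 3 WT levels, all undetected. Of the 6 genes 0, 0, 2 and 1 showed no overlap between genotypes in resting Naive, stimulated Naive, resting Th2 and stimulated Th2 cells, against 7.99%, 6.59%, 10.3% and 7.47% of all genes.

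**Figure D5:**
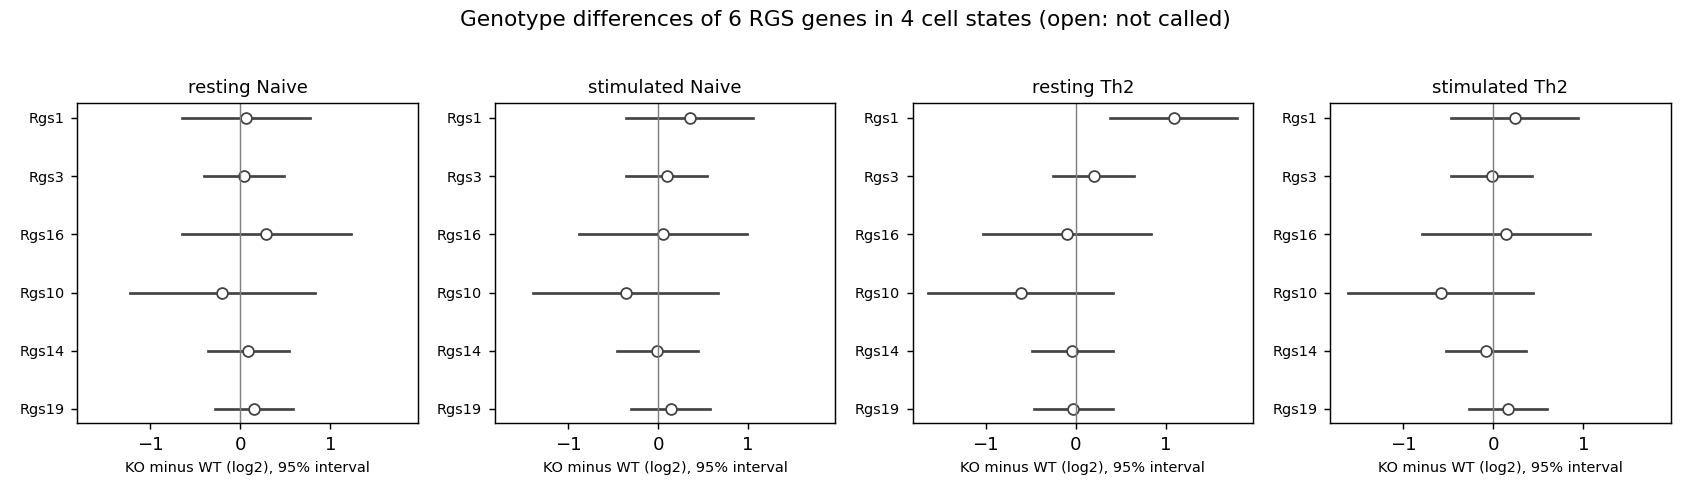
KO minus WT difference of log2 level (x axis, with its 95% interval) for the brightest probe of 6 RGS genes in each of 4 cell states, each point over 3 against 3 arrays, all open because none was called. The Rgs1 interval in resting Th2 cells, 0.38 to 1.80, is the one that does not reach 0.

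Among the pathway lists, calls by genotype were made in resting Th2 cells for Adcy6, an adenylyl cyclase, at 5.22 in KO against 6.17 in WT cells (-0.94, limma, adjusted p = 0.0425), and for Gnaz, the alpha subunit Gz, at 5.32 against 4.62 (0.69, adjusted p = 0.0390). Gnaz was detected on 5 of 24 arrays, 3 KO and 2 WT, all of resting Th2 cells. It thus entered the tests only through the state in which it was called. These calls were 1 of 23 effectors and 1 of 22 subunits, where 0.106% of all genes were called.

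Likeness of pattern was measured as Pearson's r of log2 level over the 24 arrays among 8964 genes detected on at least 3 arrays, as a description, since arrays of one state share much of their pattern. The genes most like Rgs16 were Ccl3 (0.979), Gfod1 (0.967) and Stat5a (0.966), and those most like Rgs3 were Ccr6 (0.964), Sorl1 (0.961) and Nsg2 (0.945). Rgs1 was closest to Klf9 (0.914), Nfkbid (0.850) and Herpud1 (0.813), and Rgs14 to Atp1b3 (0.907), S1pr4 (0.894) and Arl6ip5 (0.892). For Rgs10 these were Gimap9 (0.841), Dedd2 (0.783) and Lef1 (0.771), and for Rgs19 no gene exceeded 0.669. Between the members themselves r was -0.817 for Rgs16 and Rgs14 and 0.680 for Rgs3 and Rgs14, and 0.424 for Rgs16 and Rgs1.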

How the data were processed

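RNA of 24 samples was hybridised to Illumina MouseRef-8 v2 bead arrays. The deposited table holds, per probe and array, an intensity that the authors left non-normalized and a detection p-value; the submitters' notes name GenomeStudio 1.6.0. Symbols were updated through RefSeq. Intensities were corrected for background and quantile normalized with neqc (limma 3.58.1, R 4.3.3, offset 16) over all probes; log2 values of 14246 probes detected (p at most 0.02) on at least 1 array were fitted with lmFit and eBayes, 8 group means, no block, 16 residual degrees of freedom, Benjamini-Hochberg over kept probes. A gene is described by its brightest probe. "At least" folds set an undetected probe to the dimmest detected signal of its array. Of each pathway list, the 2 genes changing most each way among those called in WT were eligible to be named. The members and lists were chosen with earlier results of these data known. Exact permutation tests were two-sided; 3 against 3 arrays cannot go below 0.1. The study describes 3 pairs of WT and KO mice, but no source used here says which letter is which pair, so p-values measure the spread between these samples. Chip positions are not given in the sources used here; the number of arrays limits precision. The methods' Z-score normalization was run as an alternative, with others. The fit was tested on simulated data. Same-lettered arrays deviated together (r over 0.1 for A, B and C) in KO against WT cells with the 4 states pooled (0.301, 0.136 and 0.516). Taken singly, this held for KO against WT in stimulated Naive (0.648, 0.251 and 0.347) and stimulated Th2 cells (0.241, 0.186 and 0.662). It also held in KO Th2 stimulation (0.355, 0.290 and 0.427) and KO resting Th2 against Naive cells (0.204, 0.152 and 0.131). Values with the letter as a block are given where they change a call.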

Additional observations from a re-analysis of the deposited data

How the results depend on the processing

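Of 27 differences called, 25 kept sign and call on Z-scores, 27 without background correction, 25 without the detection filter, 23 when the fit held the arrays compared alone, 27 with the replicate block, and 12 without normalization between arrays, an alternative chosen after seeing the data, where 2 turned sign: Rgs1 in KO stimulated Naive (0.15) and KO resting Th2 cells (0.14) against KO resting Naive cells. On leaving out single arrays 147 of 162 were kept. Without normalization between arrays 1 RGS gene was called in place of 4 for stimulation of WT and of KO Naive cells. It was 0 in place of 3 for WT resting Th2 against resting Naive and 1 in place of 3 for WT resting Th2 against stimulated Naive cells. Over all genes the calls for stimulation of WT Naive cells then went from 2424 higher and 2280 lower to 2770 and 578. For WT resting Th2 against resting Naive cells they went from 1864 and 1836 to 2318 and 397. The cause was not tested. For WT stimulated Th2 against stimulated Naive cells 2 genes were called in place of 1 with the replicate block or counting any probe (Rgs1 and Rgs16) and with the arrays compared alone (Rgs3 and Rgs16), and 1 to 2 on leaving out single arrays. Leaving out single arrays also gave 1 to 3 genes for WT resting Th2 against stimulated Naive cells and 0 to 1 by genotype in resting Naive cells, where Rgs14 differed by 0.49 (adjusted p = 0.133) without WT array C. The replicate block moved Rgs3 in KO Th2 stimulation past the threshold (adjusted p = 0.0250), left the genotype difference of Rgs1 in resting Th2 cells uncalled (adjusted p = 0.529) and lost no call. Resting Naive arrays could not be left out as a set, since all 6 hold the myeloid markers. Dim Rgs3 probes went against the brightest in KO resting Th2 (0.25, 0.17, 0.078 and 0.060) and KO stimulated Naive (0.043, 0.020, 0.021 and 0.042) against KO resting Naive cells, in KO Th2 stimulation (0.085, 0.075 and 0.035), and in WT resting Th2 (0.017 and 0.076), stimulated Naive (0.078) and stimulated Th2 cells (0.11) against WT resting Naive cells, none of them called. Signals near the negative controls limit Rgs2, Rgs14, Rgs19 and most Rgs3 probes.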
